A study of Mus musculus with 8 samples.

Results

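Glycolysis and pyruvate metabolism was followed through 31 genes, picked by symbol from the 39009 entries of each gene table. Each symbol matched 1 entry, and all 31 had a usable estimate in every library. They cover glucose uptake, the steps from hexokinase to lactate dehydrogenase, lactate export, pyruvate entry into mitochondria and the control of pyruvate dehydrogenase. Of the 17 steps, 10 are represented by more than 1 gene.

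RNA sequencing of 8 mouse libraries was used. NSC-CiPSCs (3 lines, numbered 1, 2 and 3) are pluripotent stem cells induced with small-molecule compounds from neural stem cells (NSC, 1 library), which had been cultured to passage 2 from E13.5 embryos. IEC-CiPSCs (2 lines, numbered 10 and 13) were induced the same way from primary small intestinal epithelial cells (IEC, 1 library), taken from embryos of the same age. Embryonic stem cells of the R1 line (ESC, 1 library) came from a 129X1 x 129S1 cross. The NSC strain is given as C57BL/6J-Tg(GOFGFP)11Imeg/RbrcxICR, which carries a GFP transgene in a cross to ICR, and the strain entries of IEC and of all CiPSC lines differ from it only in the number before Imeg. Strain therefore differed between the CiPSC lines and ESC, and the sources used here do not say whether lines came from separate animals. The spread behind every p-value is that between CiPSC lines, which may be technical, and NSC, IEC and ESC each rest on 1 library.

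Glycolysis splits glucose into pyruvate in the cytosol, with the committed step at phosphofructokinase. Pyruvate is then reduced to lactate and exported, or carried into mitochondria and turned into acetyl-CoA by pyruvate dehydrogenase, which pyruvate dehydrogenase kinases switch off. Pluripotent stem cells are known for high glycolytic flux, and many glycolytic genes have paralogues with different tissue distributions and different dependence on the hypoxia-inducible factors.

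Levels are FPKM, fragments scaled by transcript length and by mapped fragments, which allows genes to be compared with each other. FPKM sums ran from 661114 to 771389 per library. All 10 pluripotency markers reached 10 FPKM in every CiPSC line and in ESC, and all 10 neural stem markers did so in NSC. The library labelled IEC went against its label in part. Only 4 of 10 intestinal epithelial markers reached 10 FPKM there, with a summed level of 229 FPKM, while fibroblast markers summed to 6921 FPKM, hepatocyte markers to 7178, smooth muscle markers to 4049, leukocyte markers to 3844 and pancreas markers to 2677. In the CiPSC lines and ESC none of these other lists summed to more than 96.6 FPKM. IEC results below therefore describe a mixed tissue library, and the part of these other cells in them was not tested.

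The promoters of members on which the results turn are shown because several of these genes are known targets of hypoxia-inducible factors in mammals. Sequences are from RefSeq (GRCm38.p6), from 250 bases before to 50 bases after a transcript start and read 5′ to 3′ on the strand of the gene. Capitals mark ACGTG and GCGTG, the core letters of the hypoxia response element, on either strand (CACGT and CACGC where the match is on the other strand). Where a gene had more than 1 window, the first is given.
Slc2a1 (chr4:119108495-119108794, + strand): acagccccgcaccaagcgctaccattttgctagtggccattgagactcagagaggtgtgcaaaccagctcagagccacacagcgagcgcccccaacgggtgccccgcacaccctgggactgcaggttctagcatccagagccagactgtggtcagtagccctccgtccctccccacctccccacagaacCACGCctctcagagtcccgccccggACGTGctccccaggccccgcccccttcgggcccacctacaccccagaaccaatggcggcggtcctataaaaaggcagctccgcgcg
Hk2 (chr6:82774405-82774704, - strand): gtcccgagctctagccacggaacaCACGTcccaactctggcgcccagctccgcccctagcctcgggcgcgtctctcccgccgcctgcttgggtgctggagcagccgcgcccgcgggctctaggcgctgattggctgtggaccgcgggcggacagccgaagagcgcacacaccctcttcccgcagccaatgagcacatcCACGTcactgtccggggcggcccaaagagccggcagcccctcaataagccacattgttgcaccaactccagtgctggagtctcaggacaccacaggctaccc
Ldha (chr7:46845554-46845853, + strand): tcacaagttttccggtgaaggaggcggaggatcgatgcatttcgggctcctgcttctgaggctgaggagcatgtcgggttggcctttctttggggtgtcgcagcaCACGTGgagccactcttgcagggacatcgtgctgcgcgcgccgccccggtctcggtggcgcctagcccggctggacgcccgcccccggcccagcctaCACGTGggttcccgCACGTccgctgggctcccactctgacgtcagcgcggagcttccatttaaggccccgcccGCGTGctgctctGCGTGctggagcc
Slc16a3 (chr11:120948817-120949116, + strand): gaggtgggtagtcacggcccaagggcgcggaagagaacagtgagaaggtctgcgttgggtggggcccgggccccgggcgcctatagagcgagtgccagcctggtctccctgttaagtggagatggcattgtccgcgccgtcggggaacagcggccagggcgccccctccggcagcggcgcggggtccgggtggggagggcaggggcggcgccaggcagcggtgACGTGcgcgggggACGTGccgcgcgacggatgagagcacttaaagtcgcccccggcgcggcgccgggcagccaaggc
Pdk1 (chr2:71872974-71873273, + strand): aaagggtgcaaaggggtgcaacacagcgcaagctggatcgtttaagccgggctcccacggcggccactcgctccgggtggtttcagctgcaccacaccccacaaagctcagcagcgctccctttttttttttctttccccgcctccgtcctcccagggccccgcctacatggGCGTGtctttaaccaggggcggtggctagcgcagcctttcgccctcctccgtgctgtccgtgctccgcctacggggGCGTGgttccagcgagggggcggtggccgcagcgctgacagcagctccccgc
Pdk2 (chr11:95041322-95041621, - strand): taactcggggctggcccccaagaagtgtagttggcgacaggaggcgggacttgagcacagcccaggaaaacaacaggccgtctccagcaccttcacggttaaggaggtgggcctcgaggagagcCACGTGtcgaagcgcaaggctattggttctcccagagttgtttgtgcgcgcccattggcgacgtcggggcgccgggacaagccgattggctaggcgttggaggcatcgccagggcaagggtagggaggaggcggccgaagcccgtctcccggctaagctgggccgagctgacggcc
Mpc1 (chr17:8283537-8283836, + strand): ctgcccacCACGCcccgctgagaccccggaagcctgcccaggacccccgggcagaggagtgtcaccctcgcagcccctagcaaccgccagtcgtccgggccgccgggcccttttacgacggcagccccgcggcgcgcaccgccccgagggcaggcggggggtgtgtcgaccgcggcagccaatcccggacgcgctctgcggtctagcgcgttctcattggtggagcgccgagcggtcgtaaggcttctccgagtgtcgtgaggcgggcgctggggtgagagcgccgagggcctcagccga
Such a match was found in 35 of 45 windows of 30 members (77.8%), against 43.8% of all 32851 windows in the table. Median GC content was 62.0% in the members' windows and 52.7% in all windows, and its part in that difference was not tested. ACGTG and GCGTG overlap other motifs, a palindromic CACGTG counts on both strands, and a match is no evidence of binding. The Ldha window above held 7 matches, and the windows of Pdk2 and Mpc1, which were lower in the CiPSC lines, held 2 and 1. No window was given for Slc2a3.

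The first question was how these genes differed between CiPSC lines and the cells they were made from. In the neural route, CiPSC lines had more transcript for glucose uptake, Hk2 and Pdk1 and less for mitochondrial pyruvate import, Pdk2 and the muscle-type phosphofructokinase, while Aldoa, Gapdh, Pgk1, Pgam1, Eno1, Pkm and Ldha differed by less than 2-fold on average. Of 31 members, 10 were called (limma on log2(FPKM + 1), adjusted p under 0.05 by Benjamini-Hochberg over 17011 entries and at least 2-fold). Of these, 5 rose and 5 fell, against a background of 39.0% of all entries called, 18.3% higher and 20.7% lower. The share of members called was thus below that of all entries, and the median log2 change was 0.11 for members and 0.03 for all entries.

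In the intestinal route 22 of 31 members were called, 17 higher and 5 lower, where 45.3% of all entries were called, 19.1% higher and 26.2% lower. The median log2 change was 1.53 for members and -0.03 for all entries. The 31 genes together made up 2.18% and 1.95% of the FPKM sum in IEC-CiPSC lines 10 and 13, against 0.412% in IEC. In NSC-CiPSC lines 1, 2 and 3 they made up 1.18%, 1.67% and 1.51%, against 1.37% in NSC and 1.52% in ESC. The count without NSC-CiPSC line 1 was 16 in the neural route, 8 in each direction, and the count without IEC-CiPSC line 10 or line 13 was 12 in the intestinal route, 11 higher and 1 lower. The intestinal calls of Slc2a3, Hk2, Gapdh, Pgk1, Pgam1, Eno1, Pkm, Ldha, Pdk1, Pdha1 and Slc16a1 remained when any of the 5 lines was left out. The other 11 were lost without line 10 or line 13, at an adjusted p of up to 0.139. The share of all entries called without 1 line is not given here for either route. A change in these member counts can therefore not be told apart from a change over all entries. IEC was the low library of the series, and NSC lay inside the range of its own derivatives. In bulk RNA, a smaller number of cells of one type cannot be told apart from less RNA of a gene per cell.

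**Figure D1:**
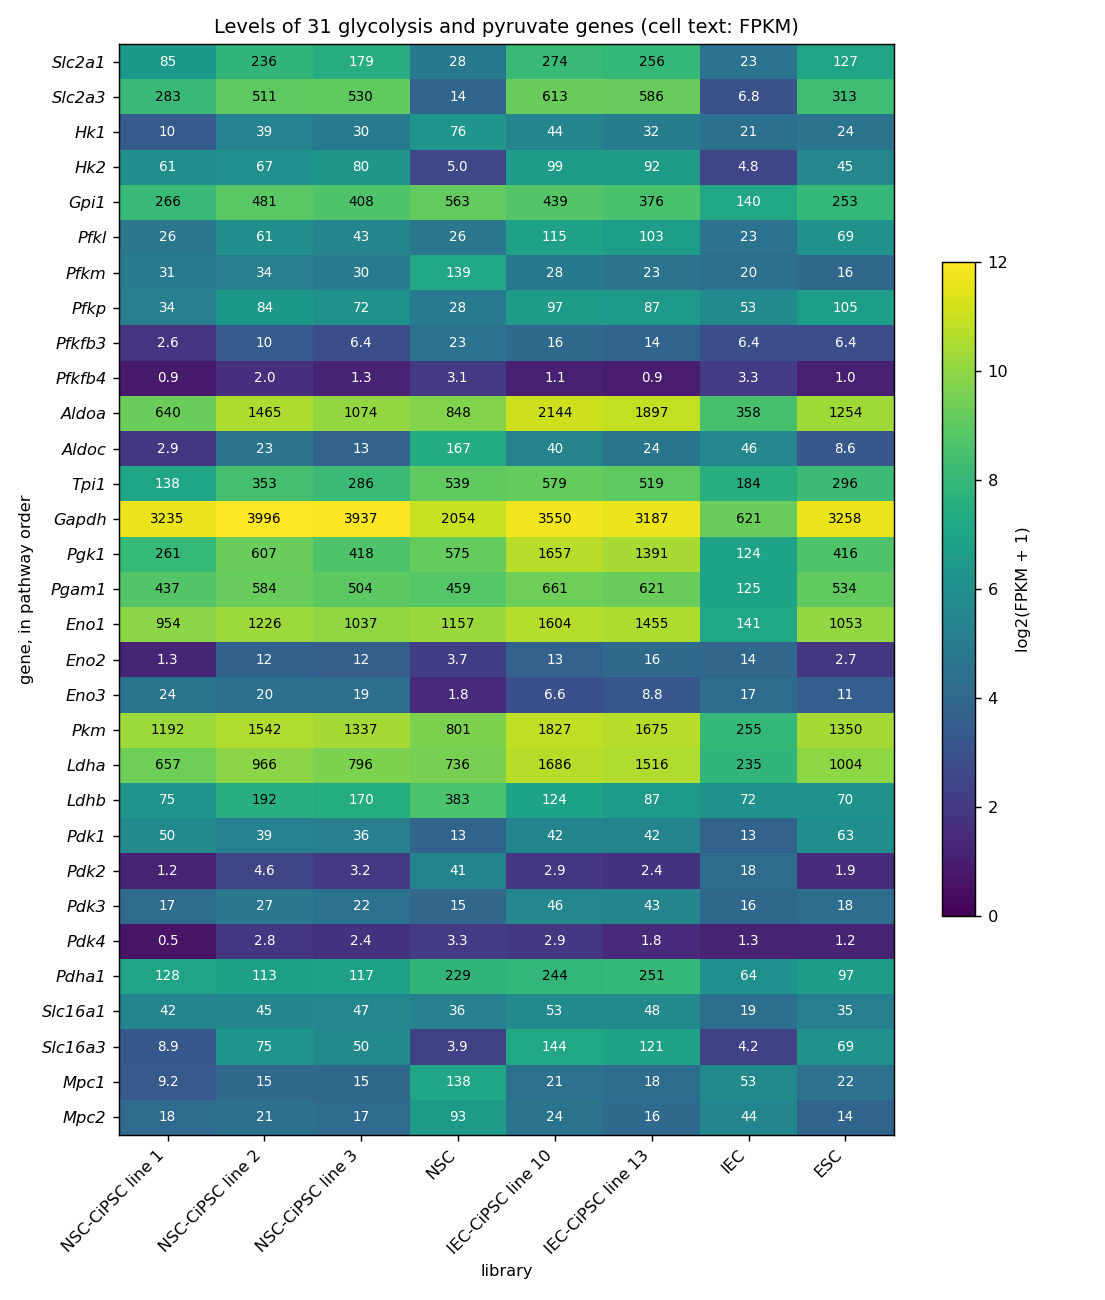
Level of each of the 31 genes (vertical axis, in pathway order) in each library (horizontal axis), as FPKM in the cells and as log2(FPKM + 1) in the colour. Gapdh is the most abundant member in every library, at 3235 FPKM in NSC-CiPSC line 1 and 621 FPKM in IEC, and Slc2a3 and Hk2 are dark only in NSC and IEC.

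Glucose uptake had the widest change. Slc2a3 encodes GLUT3, a high-affinity glucose transporter known from neurons and the early embryo. It had 283, 511 and 529.9 FPKM in NSC-CiPSC lines 1, 2 and 3, against 14.0 FPKM in NSC (95% interval within the library 10.7 to 17.2). It had 613 and 586 FPKM in the IEC-CiPSC lines, against 6.77 FPKM in IEC (3.90 to 9.65), with 313 FPKM in ESC. Every CiPSC line lay far above its source cells, and ESC lay inside the range of the NSC-CiPSC lines. The log2 changes were 4.83 ± 0.41 (SE, limma adjusted p = 0.00163) from NSC and 6.27 ± 0.44 (adjusted p = 0.000703) from IEC.

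Slc2a1 encodes GLUT1, the widespread basal glucose transporter. It had 84.5, 236 and 179 FPKM in the NSC-CiPSC lines, against 27.6 FPKM in NSC, and 274 and 256 FPKM in the IEC-CiPSC lines, against 22.9 FPKM in IEC; ESC had 127 FPKM. It rose in both routes, by a log2 change of 2.43 ± 0.62 (limma adjusted p = 0.0318) in the neural one and 3.47 ± 0.65 in the intestinal one. The neural call was lost with no filter on low values (limma adjusted p = 0.0523). It was also lost when NSC-CiPSC line 2 or 3 (0.0536 and 0.0881) or IEC-CiPSC line 10 or 13 was left out of the fit. As a share of the FPKM summed over both transporters, Slc2a3 held 73.4% ± 4.46 (SD, n = 3) in NSC-CiPSC lines, against 33.6% in NSC, and 69.4% ± 0.318 (SD, n = 2) in IEC-CiPSC lines, against 22.8% in IEC. The share was 71.1% in ESC. Of these 2 genes, Slc2a1 held the larger share in both kinds of source cell, and Slc2a3 in all 6 pluripotent libraries. Slc2a4, which is outside this sum, had 27.4 FPKM in IEC.

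Hexokinase phosphorylates glucose and traps it in the cell. Hk2, the inducible hexokinase, had 61.2, 66.7 and 79.7 FPKM in the NSC-CiPSC lines, against 5.01 FPKM in NSC, and 98.7 and 92.2 FPKM in the IEC-CiPSC lines, against 4.76 FPKM in IEC. ESC had 45.3 FPKM, below all 5 lines. Hk2 rose by a log2 change of 3.54 ± 0.17 over NSC (limma adjusted p = 0.000395) and 4.06 ± 0.18 over IEC. Hk1, the hexokinase of brain and many other tissues, had 10.2, 39.3 and 30.4 FPKM in the NSC-CiPSC lines, against 75.5 FPKM in NSC, and was not called there (log2 change -1.66 ± 0.81, adjusted p = 0.155). It had 43.7 and 32.2 FPKM in the IEC-CiPSC lines, against 20.7 FPKM in IEC, and was not called either. Hk2 held 73.7% ± 11.5 of hexokinase FPKM in the NSC-CiPSC lines, against 6.23% in NSC, and 71.7% ± 3.42 in the IEC-CiPSC lines, against 18.7% in IEC. The summed level of both genes was 95.9 ± 21.3 FPKM (SD, n = 3) in NSC-CiPSC lines, against 80.6 FPKM in NSC, so in this route the make-up of the step differed more than its total. In the intestinal route the total was 133 ± 12.8 FPKM (SD, n = 2) in the lines, against 25.4 FPKM in IEC.

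Gpi1 converts glucose-6-phosphate to fructose-6-phosphate. It had 266, 481 and 408 FPKM in the NSC-CiPSC lines, against 563 FPKM in NSC, and 439 and 376 FPKM in the IEC-CiPSC lines, against 139.7 FPKM in IEC. It was lower than in NSC in all 3 neural lines without passing the test (log2 change -0.59), and it rose in the intestinal route (1.53 ± 0.39).

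Phosphofructokinase has a liver, a muscle and a platelet subunit, and of these only the muscle subunit was called in the neural route. Pfkm had 30.6, 33.6 and 30.4 FPKM in the NSC-CiPSC lines, against 139 FPKM in NSC, 28.1 and 23.4 FPKM in the IEC-CiPSC lines, against 19.6 FPKM in IEC, and 15.9 FPKM in ESC. NSC stood alone, and Pfkm fell in the neural route by 2.11 ± 0.13 on the log2 scale (limma adjusted p = 0.00077) without a call in the intestinal one. Pfkl had 25.9, 61.1 and 43.0 FPKM in the NSC-CiPSC lines, against 26.0 FPKM in NSC, and 115 and 103 FPKM in the IEC-CiPSC lines, against 22.9 FPKM in IEC. It rose in the intestinal route (log2 change 2.20 ± 0.53). Pfkp had 34.3, 84.3 and 71.7 FPKM in the NSC-CiPSC lines, against 28.5 FPKM in NSC, 97.1 and 86.9 FPKM in the IEC-CiPSC lines, against 53.4 FPKM in IEC, and 105 FPKM in ESC. It was not called in either route.

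Pfkm held 24.5% ± 8.08 of phosphofructokinase FPKM in the NSC-CiPSC lines, against 71.9% in NSC, and 11.3% ± 0.530 in the IEC-CiPSC lines, against 20.4% in IEC. Pfkl and Pfkp together carried the larger share in every library except NSC. Pfkm overlaps Senp1 and Pfkp overlaps Pitrm1 on the opposite strand, at 8.73 to 26.9 and 24.6 to 35.7 FPKM over the libraries. The sources used here do not say that reads were counted by strand, so the low values of Pfkm and Pfkp are uncertain.

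Pfkfb3 and Pfkfb4 make and break down fructose-2,6-bisphosphate, the activator of phosphofructokinase. Pfkfb3 had 2.56, 10.1 and 6.36 FPKM in the NSC-CiPSC lines, against 23.1 FPKM in NSC, and 16.2 and 13.8 FPKM in the IEC-CiPSC lines, against 6.43 FPKM in IEC. It was not called in either route. Pfkfb4 was low throughout, with 0.854, 2.05 and 1.26 FPKM in the NSC-CiPSC lines, against 3.15 FPKM in NSC (interval 1.65 to 4.64), and 1.06 and 0.906 FPKM in the IEC-CiPSC lines, against 3.32 FPKM in IEC (2.17 to 4.47). Its call as lower in the intestinal route (log2 change -1.13 ± 0.32, limma adjusted p = 0.0409) was lost under quantile normalization (adjusted p = 0.185). It was also lost with a pseudocount of 0.1 (0.0617) and with no filter on low values (0.0609). At such levels the added 1 FPKM compresses the change.

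Aldoa and Aldoc are the ubiquitous and the brain-enriched aldolase. Aldoa had 640.5, 1465 and 1074 FPKM in the NSC-CiPSC lines, against 848 FPKM in NSC, and 2144 and 1897 FPKM in the IEC-CiPSC lines, against 358 FPKM in IEC. It rose in the intestinal route (log2 change 2.49 ± 0.53). Aldoc had 2.85, 23.5 and 13.1 FPKM in the NSC-CiPSC lines, against 167 FPKM in NSC, and 40.04 and 24.4 FPKM in the IEC-CiPSC lines, against 45.6 FPKM in IEC, with 8.59 FPKM in ESC. NSC stood above all other libraries, and the fall in the neural route was 3.93 ± 1.14 on the log2 scale (limma adjusted p = 0.0457). This call was lost with a pseudocount of 0.1 or 0.5 (adjusted p = 0.0569 and 0.0508), with no filter on low values (0.0729) and with no trend in the fit (0.0501). It was also lost without NSC-CiPSC line 3 (0.0970) or IEC-CiPSC line 10 or 13. Aldoc held 1.08% ± 0.579 of aldolase FPKM in the NSC-CiPSC lines, against 16.5% in NSC, and 1.55% ± 0.398 in the IEC-CiPSC lines, against 11.3% in IEC.

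Below aldolase lies the payoff phase, in which ATP and NADH are made. Tpi1, triosephosphate isomerase, had 138, 353 and 286 FPKM in the NSC-CiPSC lines, against 539 FPKM in NSC, and 579 and 519 FPKM in the IEC-CiPSC lines, against 184 FPKM in IEC. Neither difference was called. Gapdh, a frequent reference gene, had 3235, 3996 and 3937 FPKM in the NSC-CiPSC lines, against 2054 FPKM in NSC, and 3550.2 and 3187 FPKM in the IEC-CiPSC lines, against 621 FPKM in IEC. It was higher in every line than in its source cells, by a log2 change of 0.85 ± 0.18 in the neural route (limma adjusted p = 0.0186, under 2-fold) and 2.44 ± 0.19 in the intestinal one.

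Pgk1, phosphoglycerate kinase, had 261, 607 and 418 FPKM in the NSC-CiPSC lines, against 575.5 FPKM in NSC, and 1657 and 1391 FPKM in the IEC-CiPSC lines, against 124 FPKM in IEC. ESC had 416 FPKM. NSC lay inside the range of its lines, while the intestinal lines were more than 10-fold above IEC (log2 change 3.60 ± 0.53). Pgam1, phosphoglycerate mutase, had 437, 584 and 504 FPKM in the NSC-CiPSC lines, against 459 FPKM in NSC, and 661 and 621 FPKM in the IEC-CiPSC lines, against 125 FPKM in IEC. It rose in the intestinal route (2.34 ± 0.19).

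Eno1, the widespread enolase, had 954, 1226 and 1037 FPKM in the NSC-CiPSC lines, against 1157 FPKM in NSC, and 1604 and 1455 FPKM in the IEC-CiPSC lines, against 141 FPKM in IEC. The neural values overlapped (log2 change -0.12 ± 0.17), and Eno1 rose in the intestinal route (3.43 ± 0.18). Eno3, the muscle enolase, had 24.5, 20.2 and 19.5 FPKM in the NSC-CiPSC lines, against 1.80 FPKM in NSC (interval 0.663 to 2.95), and 6.63 and 8.83 FPKM in the IEC-CiPSC lines, against 17.2 FPKM in IEC. It rose in the neural route (2.99 ± 0.22, limma adjusted p = 0.00111) and fell in the intestinal one (-1.07 ± 0.23, adjusted p = 0.0186). Striated muscle markers summed to 635 to 749 FPKM in the NSC-CiPSC lines, against 3.65 FPKM in NSC. This was mostly through Mylpf, a myosin light chain, at a mean of 680 FPKM, and only 1 of the 10 markers reached 10 FPKM. The same markers summed to 569 and 555 FPKM in the IEC-CiPSC lines, against 39.7 FPKM in IEC, and to 318 FPKM in ESC. Mylpf had 564 and 549.7 FPKM in the IEC-CiPSC lines, and its part in the Eno3 values was not tested. Eno2, the neuronal enolase, had 1.34, 12.0 and 11.6 FPKM in the NSC-CiPSC lines, against 3.71 FPKM in NSC, 12.8 and 16.5 FPKM in the IEC-CiPSC lines, against 14.5 FPKM in IEC, and 2.71 FPKM in ESC. It was not called in either route.

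Pkm, pyruvate kinase, had 1192, 1542 and 1337 FPKM in the NSC-CiPSC lines, against 801 FPKM in NSC, and 1827 and 1675 FPKM in the IEC-CiPSC lines, against 255 FPKM in IEC. All 5 lines lay above their source cells, by 0.75 ± 0.17 in log2 in the neural route (limma adjusted p = 0.0239, under 2-fold) and 2.77 ± 0.18 in the intestinal one. The gene-level values do not separate the M1 and M2 splice forms. Near-identical copies elsewhere in the genome (at least 95% identical over at least 300 bases) make several of these levels uncertain. Copies held 20.4% to 31.6% of the FPKM summed over Gapdh and its 68 copies, 27.2% to 29.4% for Pgam1 and 7.57% to 8.29% for Pgk1. For Eno1 the share of its copies was 26.8% to 28.03% in the NSC-CiPSC lines, 27.0% and 26.7% in the IEC-CiPSC lines, 11.2% in NSC, 26.2% in IEC and 39.8% in ESC. Adding the copies to their member, an alternative chosen after seeing the data, changed the log2 value of Eno1 in the neural route to 0.18 and changed no count of members called.

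**Figure D2:**
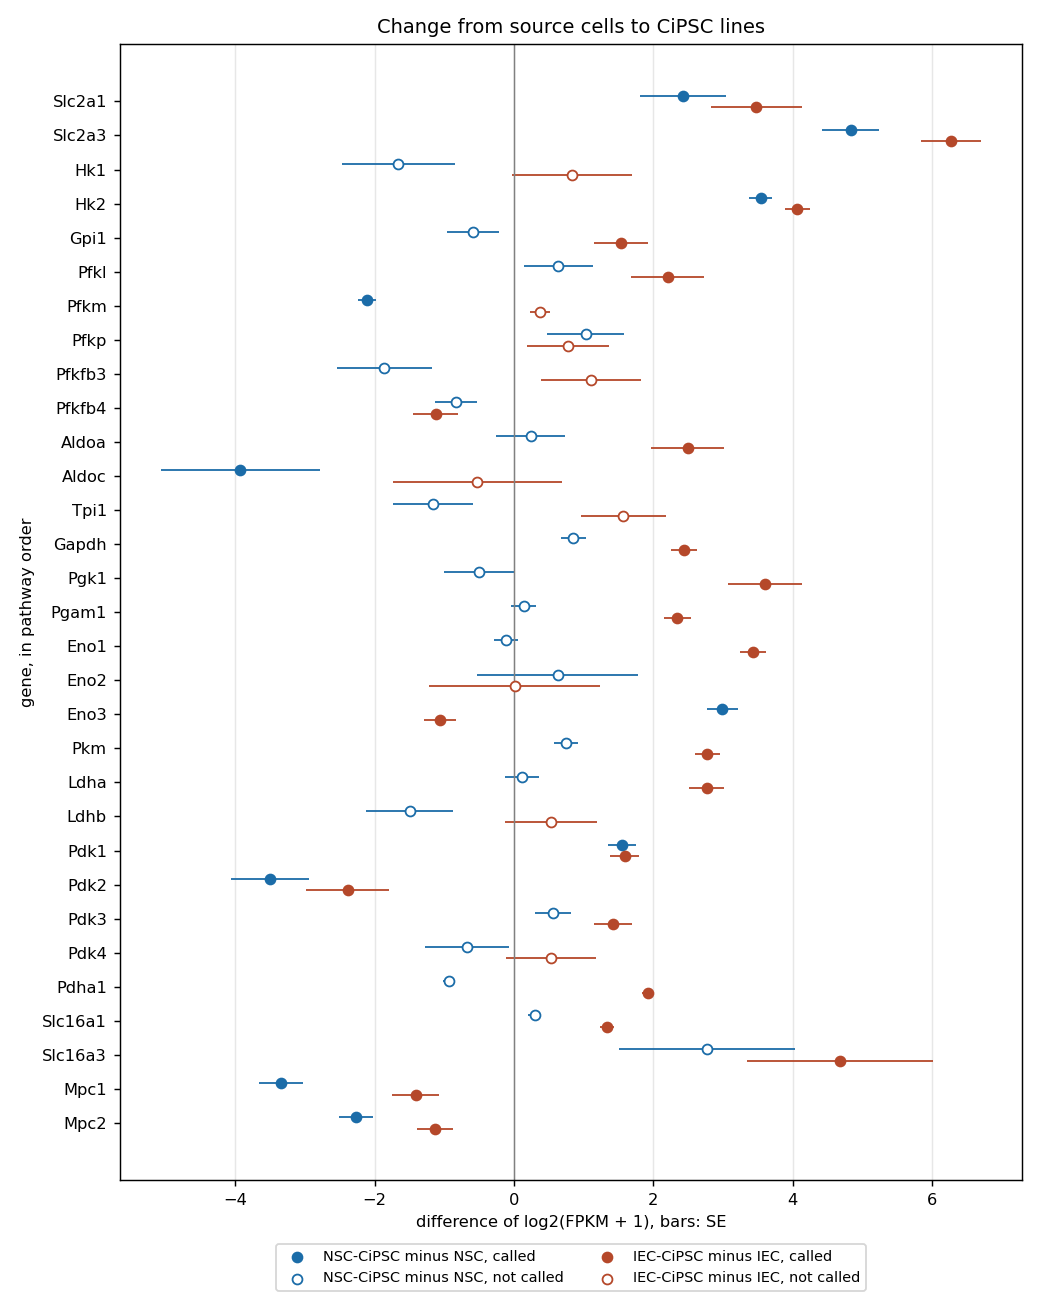
Difference of log2(FPKM + 1) between CiPSC lines and source cells (horizontal axis, bars are SE from limma) for each gene (vertical axis), with filled points for genes called. Of 31 genes, 10 are filled for the neural route and 22 for the intestinal route, and Slc2a3 lies farthest right in both, at 4.83 and 6.27.

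At the end of the pathway, Ldha and Ldhb encode the lactate dehydrogenase subunits of muscle and heart. Ldha had 657, 966 and 796 FPKM in the NSC-CiPSC lines, against 736 FPKM in NSC, and 1686 and 1516 FPKM in the IEC-CiPSC lines, against 235 FPKM in IEC. The neural values overlapped, and Ldha rose in the intestinal route (log2 change 2.76 ± 0.25). Ldhb had 75.2, 192 and 169.6 FPKM in the NSC-CiPSC lines, against 383 FPKM in NSC, and 124 and 87.3 FPKM in the IEC-CiPSC lines, against 71.7 FPKM in IEC. It was lower than NSC in all 3 neural lines without a call (log2 change -1.50, adjusted p = 0.109). Ldhb held 14.8% ± 3.95 of lactate dehydrogenase FPKM in the NSC-CiPSC lines, against 34.2% in NSC, and 6.15% ± 0.991 in the IEC-CiPSC lines, against 23.4% in IEC, with 6.54% in ESC.

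The monocarboxylate transporters Slc16a1 and Slc16a3 (MCT1 and MCT4) carry lactate across the plasma membrane. Slc16a1 had 41.7, 44.8 and 46.6 FPKM in the NSC-CiPSC lines, against 36.0 FPKM in NSC, and 52.7 and 48.4 FPKM in the IEC-CiPSC lines, against 19.4 FPKM in IEC. It rose in the intestinal route (1.33 ± 0.10) and was not called in the neural one. Slc16a3, typical of strongly glycolytic tissues, had 8.91, 75.2 and 49.6 FPKM in the NSC-CiPSC lines, against 3.93 FPKM in NSC, and 144 and 121 FPKM in the IEC-CiPSC lines, against 4.19 FPKM in IEC. ESC had 68.5 FPKM. Line 1 lay above NSC but nearer to it than to ESC, while lines 2 and 3 were nearer to ESC. The neural difference of 2.77 ± 1.26 was not called (limma adjusted p = 0.134), while without line 1 it was 3.65 (adjusted p = 0.00509). The intestinal rise of 4.68 ± 1.34 was called (limma adjusted p = 0.0409). This call was lost with no filter on low values (0.0618), and without IEC-CiPSC line 10 or 13 or NSC-CiPSC line 3 (0.0793 for the last).

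Pyruvate that is not reduced enters mitochondria through a carrier made of Mpc1 and Mpc2. Mpc1 had 9.21, 14.9 and 14.8 FPKM in the NSC-CiPSC lines, against 138 FPKM in NSC (interval 128 to 149), 21.1 and 17.8 FPKM in the IEC-CiPSC lines, against 53.2 FPKM in IEC (46.6 to 59.8), and 21.9 FPKM in ESC. Mpc2 had 17.5, 20.7 and 17.5 FPKM in the NSC-CiPSC lines, against 93.1 FPKM in NSC, 23.6 and 16.1 FPKM in the IEC-CiPSC lines, against 44.1 FPKM in IEC, and 13.8 FPKM in ESC. All pluripotent libraries were below both kinds of source cell for both subunits, with no overlap. In the neural route Mpc1 fell by 3.35 ± 0.31 on the log2 scale (limma adjusted p = 0.00208) and Mpc2 by 2.27 ± 0.24 (adjusted p = 0.00287). In the intestinal route they fell by 1.41 ± 0.33 and 1.14 ± 0.26.

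Pyruvate dehydrogenase kinases inactivate the pyruvate dehydrogenase complex, and in the neural route the make-up of the 4 genes differed more than their sum. Pdk1 had 50.2, 39.1 and 36.3 FPKM in the NSC-CiPSC lines, against 13.48 FPKM in NSC, 41.6 and 42.2 FPKM in the IEC-CiPSC lines, against 13.3 FPKM in IEC, and 62.7 FPKM in ESC. Pdk2 had 1.23, 4.62 and 3.17 FPKM in the NSC-CiPSC lines, against 41.4 FPKM in NSC, 2.90 and 2.43 FPKM in the IEC-CiPSC lines, against 18.1 FPKM in IEC, and 1.86 FPKM in ESC. All 6 pluripotent libraries lay above NSC and IEC for Pdk1 and below them for Pdk2, while the 2 kinds of CiPSC line overlapped for both genes. Pdk1 rose in both routes (1.55 ± 0.20 and 1.59 ± 0.21 in log2), and Pdk2 fell in both, by 3.50 ± 0.56 and 2.39 ± 0.60. Pdk1 held 60.8% ± 10.2 of the summed kinase FPKM in the NSC-CiPSC lines, against 18.5% in NSC, and 46.0% ± 1.93 in the IEC-CiPSC lines, against 27.4% in IEC. Pdk2 held 4.34% ± 2.32 in the NSC-CiPSC lines, against 57.0% in NSC, and 2.91% ± 0.273 in the IEC-CiPSC lines, against 37.3% in IEC. The summed level was 68.9 ± 4.66 FPKM in the NSC-CiPSC lines, against 72.7 FPKM in NSC, and 91.2 ± 2.85 FPKM in the IEC-CiPSC lines, against 48.6 FPKM in IEC.

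Pdk3 had 17.3, 26.8 and 22.2 FPKM in the NSC-CiPSC lines, against 14.5 FPKM in NSC, and 45.8 and 42.7 FPKM in the IEC-CiPSC lines, against 15.9 FPKM in IEC, where it rose (1.42 ± 0.27). Pdk4 stayed between 0.531 and 3.31 FPKM in all 8 libraries and was not called. Pdha1, the catalytic alpha subunit of the E1 enzyme that these kinases phosphorylate, had 128, 113 and 117 FPKM in the NSC-CiPSC lines, against 229 FPKM in NSC, and 244 and 251 FPKM in the IEC-CiPSC lines, against 64.4 FPKM in IEC. It was lower in the neural lines by less than 2-fold (log2 change -0.93 ± 0.09, limma adjusted p = 0.002) and rose in the intestinal route (1.92 ± 0.09).

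**Figure D3:**
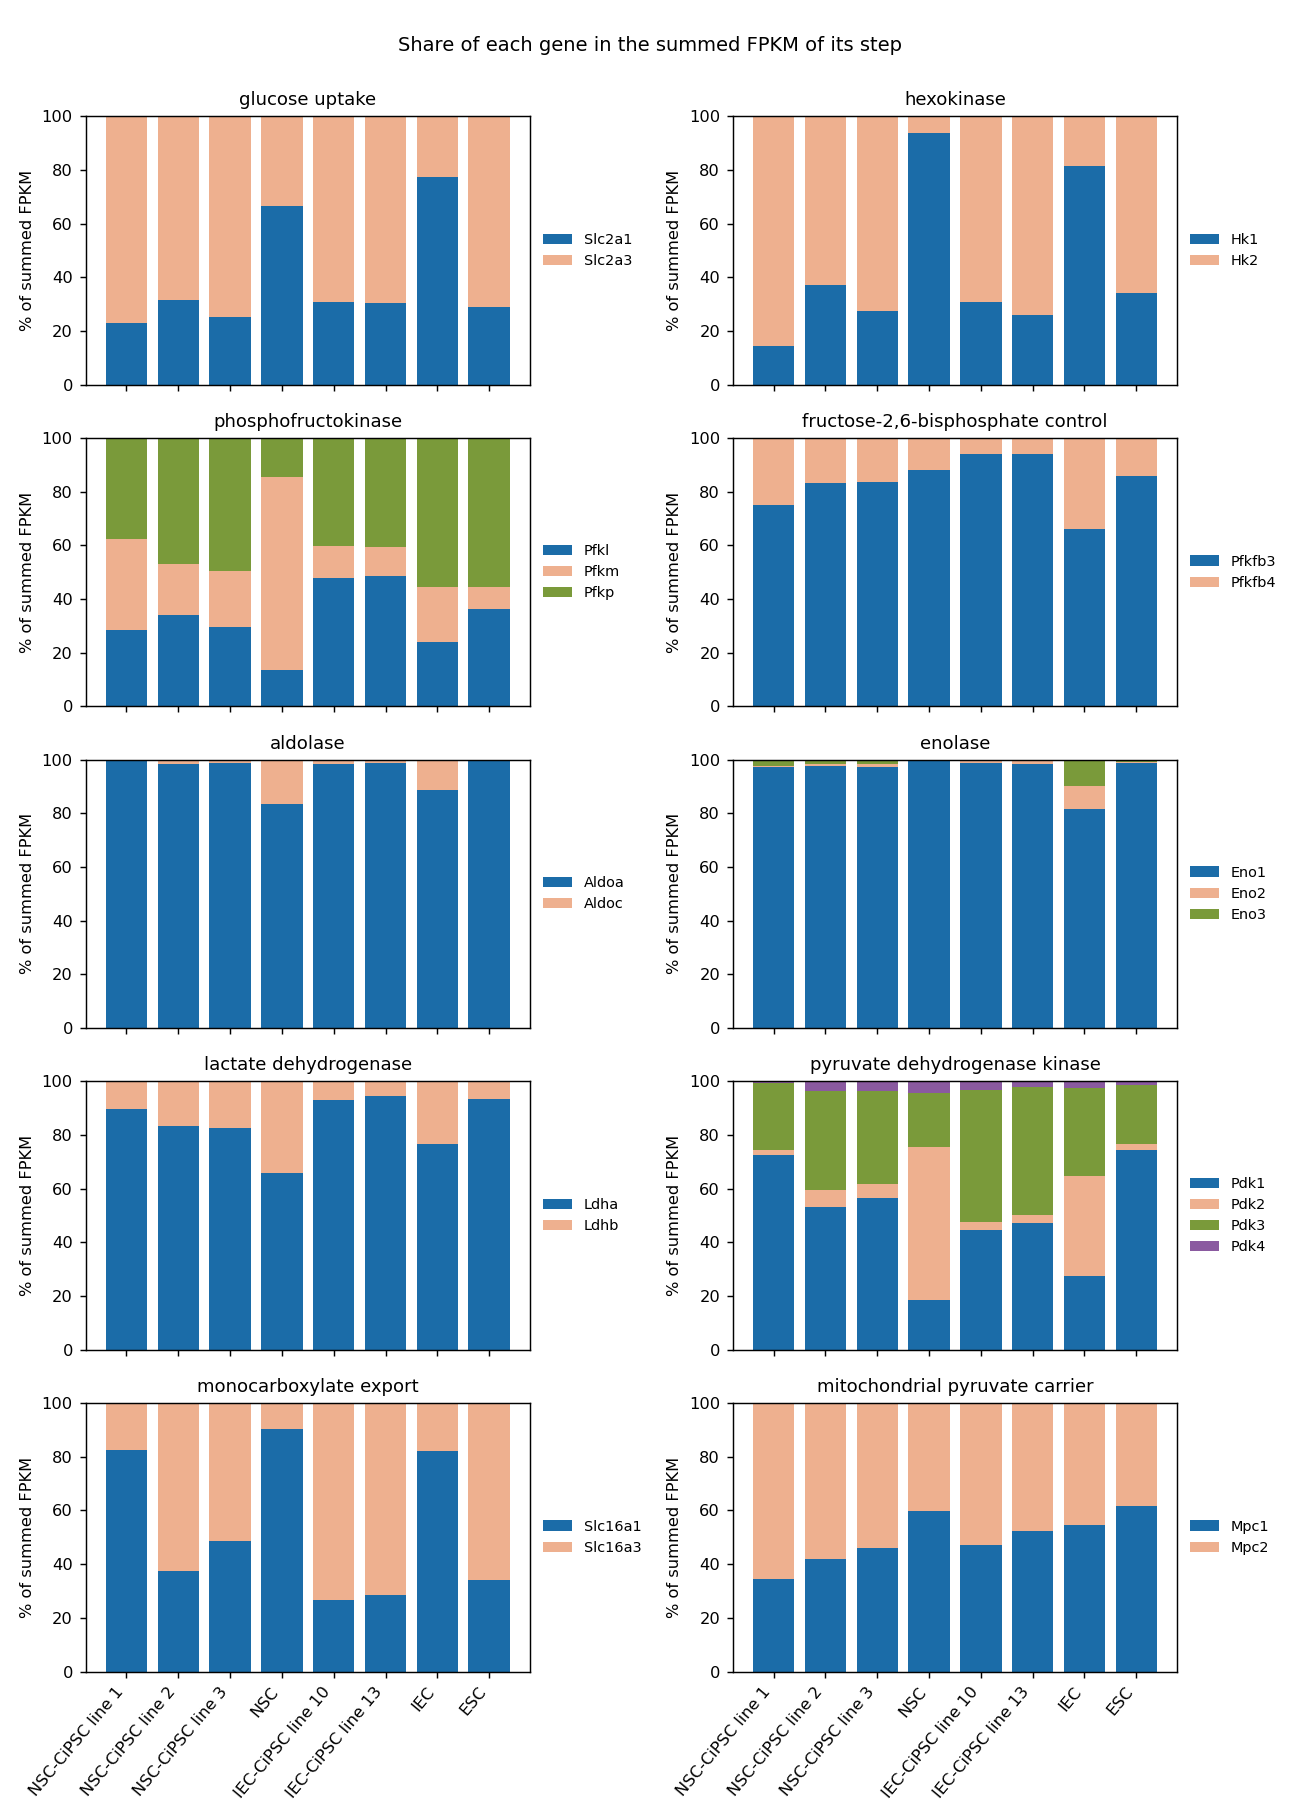
Share of each gene in the summed FPKM of its step (vertical axis, percent) in each library (horizontal axis), for the 10 steps with more than 1 gene. In NSC the hexokinase bar is almost all Hk1 (93.8%) and the kinase bar mostly Pdk2 (57.0%), while in the CiPSC lines Hk2 and Pdk1 or Pdk3 hold most.

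The 2 routes were then compared directly, as the neural change minus the intestinal change in the same fit. This difference was called for 12 of 31 members, 1 positive and 11 negative, where 30.5% of all entries were called, 17.6% positive and 12.9% negative. It carries the difference between the single NSC and IEC libraries in full. Of the 31 members, 20 differed at least 2-fold between NSC and IEC, against 35.9% of all entries. Of these, 18 were at least 2-fold higher in NSC than in IEC and 2 were at least 2-fold lower (Eno2 at -1.72 and Eno3 at -2.70 in log2), where 15.5% of all entries were higher and 20.5% lower. The median log2 difference of NSC minus IEC was 1.24 for members and 0 for all entries, with no replicate check. Pgk1 differed between routes by -4.11 ± 0.73, Eno1 by -3.55 ± 0.25 and Pdha1 by -2.85 ± 0.13, while Hk2 differed by -0.53 ± 0.24 and Pdk1 by -0.03 ± 0.29, without a call. Eno3 differed by 4.06 ± 0.32. For the fits without 1 line that follow, the share of all entries called is not given here. The count was 18 without NSC-CiPSC line 1 and 7 without IEC-CiPSC line 10, and the calls of Gpi1, Gapdh, Pgk1, Slc16a1 and Mpc1 were lost without at least 1 of the lines.

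Against ESC, which both kinds of CiPSC line share as the comparator, few members were called. In NSC-CiPSC lines against ESC, limma called 0 of 31 members, where 2.81% of all entries were called. At an unadjusted p under 0.05 there were 6 members, against 22.1% of all entries, and Pfkm was the only one at an adjusted p under 0.05 (0.95 ± 0.13 in log2, adjusted p = 0.0465, under 2-fold). ESC lay inside the range of the 3 NSC-CiPSC lines for 18 of 31 members, against 40.3% of all entries. In IEC-CiPSC lines against ESC, 1 of 31 was called, higher, where 3.36% of all entries were called and 1.63% were higher. This was Pdha1, at 244 and 251 FPKM in the lines, against 96.5 FPKM in ESC (interval 92.3 to 100.7), a log2 difference of 1.35 ± 0.09 (adjusted p = 0.0101). The call was lost without NSC-CiPSC line 3 or either IEC-CiPSC line (adjusted p from 0.0587 to 0.0900). Without NSC-CiPSC line 1, 4 members were called in this comparison, and Eno2 was called in NSC-CiPSC lines against ESC (1.79, adjusted p = 0.0396). The share of all entries called in that fit is not given here. A change in these member counts can therefore not be told apart from a change over all entries. Both IEC-CiPSC lines lay above ESC for 25 of 31 members and below it for 4, against 39.9% and 41.7% of all entries. With 1 ESC library and up to 3 lines, differences as large as 2.07 ± 1.22 (Eno2), 1.86 ± 0.53 (Pgk1) and 1.21 ± 0.27 (Pdk3) in log2 between IEC-CiPSC lines and ESC were not called.

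Between the 2 kinds of CiPSC line, all NSC-CiPSC lines were below both IEC-CiPSC lines for 20 of 31 members and above both for 2, with overlap for 9. Among all entries, 21.0% were below and 26.8% above. The median log2 difference, NSC-CiPSC minus IEC-CiPSC, was -0.52 for members and 0.03 for all entries. Only 2 members were called, where 4.32% of all entries were, 1.56% higher and 2.76% lower. Eno3 was higher (1.36 ± 0.17, limma adjusted p = 0.0269) and Pdha1 lower (-1.04 ± 0.07, adjusted p = 0.0088) in NSC-CiPSC lines. Both calls were lost when either IEC-CiPSC line (adjusted p from 0.0923 to 0.148) or NSC-CiPSC line 3 (0.102 and 0.0653) was left out, and that of Eno3 also without NSC-CiPSC line 2 (0.0776).

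Pdha1, Pgk1 and Pdk3 lie on the X chromosome, and X-linked entries were therefore also counted apart. Over 666 X-linked entries the median log2 difference, NSC-CiPSC minus IEC-CiPSC, was -0.64 and 20.6% were called lower, against a median of 0.04 and 2.04% of 16297 autosomal entries. IEC-CiPSC minus ESC had an X-linked median of 0.53, with 11.4% called higher, and an autosomal median of 0. NSC-CiPSC minus ESC had an X-linked median of -0.01. The 3 X-linked members had differences of -1.04 (Pdha1), -1.91 (Pgk1) and -0.99 (Pdk3) between the 2 kinds of line, and the part of the chromosome in them was not tested. All 3 X-linked members were lower in every NSC-CiPSC line than in both IEC-CiPSC lines, as were autosomal members such as Ldha (-1.005), Pfkl and Slc2a1. The autosomal members Pfkm and Eno3 were higher in every NSC-CiPSC line. Gapdh, Gpi1, Hk1, Ldhb and Pdk1, also autosomal, were among the members that overlapped.

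**Figure D4:**
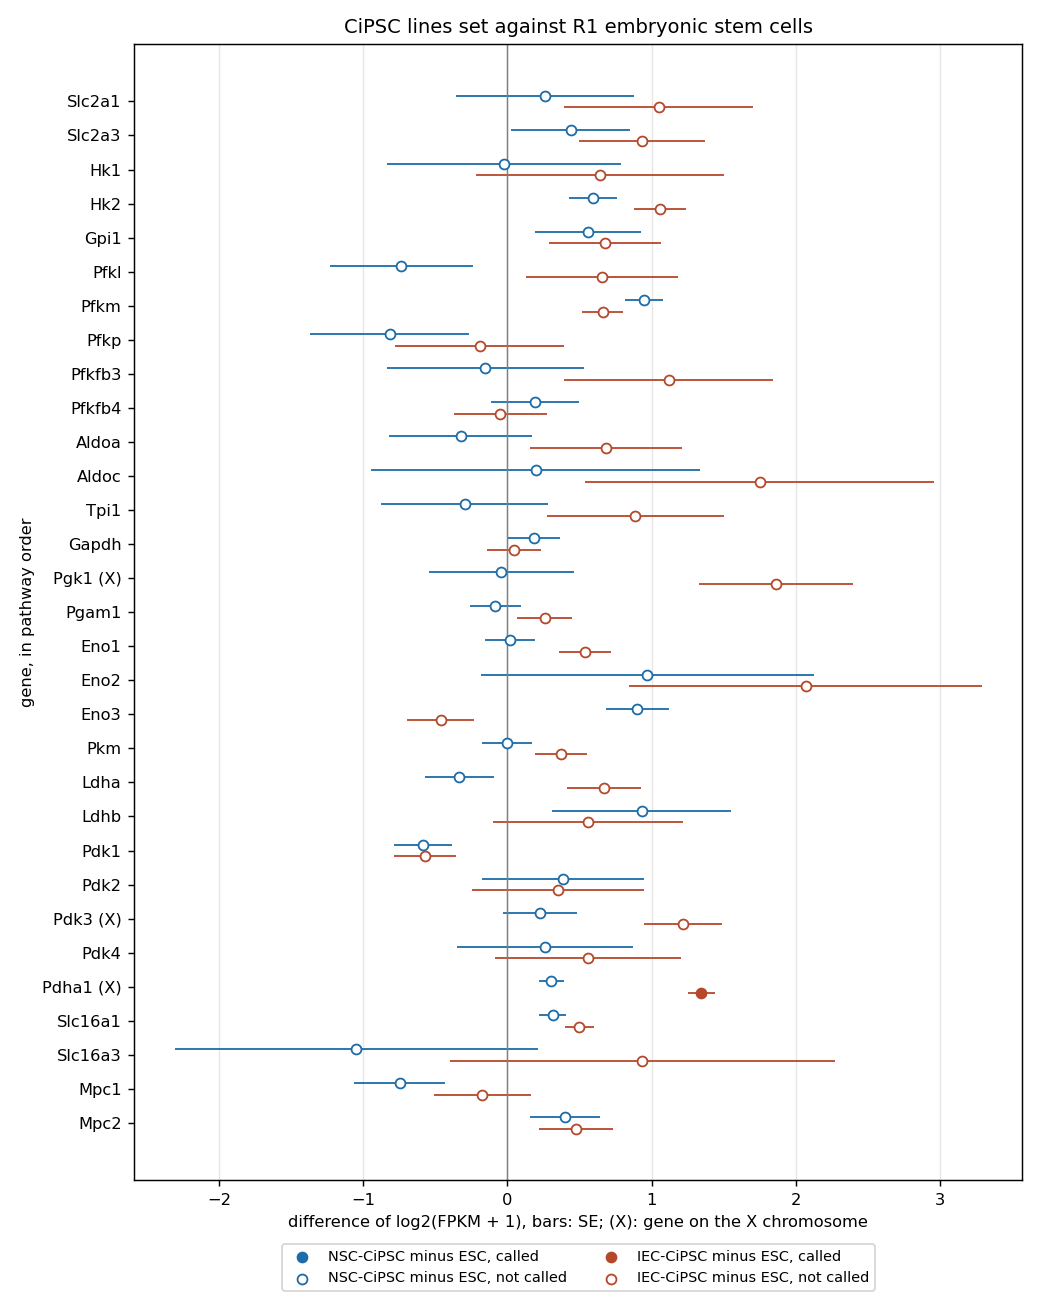
Difference of log2(FPKM + 1) between CiPSC lines and ESC (horizontal axis, bars are SE from limma) for each gene (vertical axis), with X-linked genes marked. The one filled point is Pdha1 in IEC-CiPSC lines at 1.35, and most points of the IEC-CiPSC lines lie right of 0.

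The 3 NSC-CiPSC lines were not alike. Line 1 was the lowest of the 3 for 26 of 31 members, against 43.0% of all entries, and at least 2-fold below the mean of lines 2 and 3 on the log scale for 11 members, against 2.1% of all entries. The median log2 difference of line 1 from the other lines was -0.73 over the members and -0.04 over all entries. Line 2 was the highest of the 3 for 25 members, against 39.2% of all entries. Its median log2 difference from the other lines was 0.54 over the members and 0.02 over all entries. Slc16a3, Eno2 and Aldoc, described above, had ratios of 8.44, 8.98 and 8.23 between their highest and lowest neural line. Hk2, Pfkm, Eno1, Gapdh, Pkm, Pdha1 and Slc16a1 had ratios of 1.11 to 1.30. Line 1 was the highest line for Eno3, Pdk1 and Pdha1.

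Most listed genes outside glycolysis that respond to low oxygen were also lowest in line 1. Of 20 such genes, 16 were lowest in line 1 and 17 were highest in line 2, against 43.0% and 39.2% of all entries. Line 1 was at least 2-fold below the mean of the other lines for 10, against 2.1% of all entries, with a median of -1.09. Not all followed: Kdm3a had 28.4, 26.8 and 25.9 FPKM and Slc6a8 had 27.1, 26.9 and 32.1 FPKM in lines 1, 2 and 3. Bnip3, a mitophagy receptor, had 11.5, 115 and 73.0 FPKM in lines 1, 2 and 3, and Ddit4, an inhibitor of mTORC1 signalling, had 23.5, 234 and 149.6 FPKM. Vegfa, the angiogenic growth factor, had 6.58, 24.5 and 29.1 FPKM, and Adm, the peptide hormone adrenomedullin, had 0.0827, 10.5 and 7.13 FPKM. In ESC, Bnip3, Ddit4, Vegfa and Adm had 43.0, 52.6, 17.6 and 0.250 FPKM. Hif1a transcript itself differed little, with 29.7, 24.6 and 23.2 FPKM in the lines.

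Other features also differed among the 3 neural lines. Mitochondrial transcripts made up 5.61% of the FPKM sum in line 1, against 1.94% in line 2 and 3.85% in line 3. They made up 6.03% and 6.87% in IEC-CiPSC lines 10 and 13 and 4.88% in ESC, so line 2 was the lowest of these libraries. Myc, a transcription factor that binds many glycolytic promoters, had 21.0 FPKM in line 1 and 1.54 and 2.53 FPKM in lines 2 and 3. It had 0.740 and 1.44 FPKM in IEC-CiPSC lines 10 and 13 and 11.7 FPKM in ESC. Mycn had 77.3 FPKM in line 1 and 18.6 and 28.5 FPKM in lines 2 and 3. It had 39.4 and 46.0 FPKM in IEC-CiPSC lines 10 and 13 and 43.6 FPKM in ESC. Of 20 tricarboxylic acid cycle genes, 18 were lowest in line 1 but none by 2-fold (median -0.29), against 43.0% and 2.1% of all entries. The part of any of these in the spread of the glycolytic genes was not tested. In the intestinal lines, line 13 was below line 10 for 27 of 31 members, against 51.2% of all entries, but by no more than a ratio of 1.64 (Aldoc), with a median log2 difference of -0.16.

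**Figure D5:**
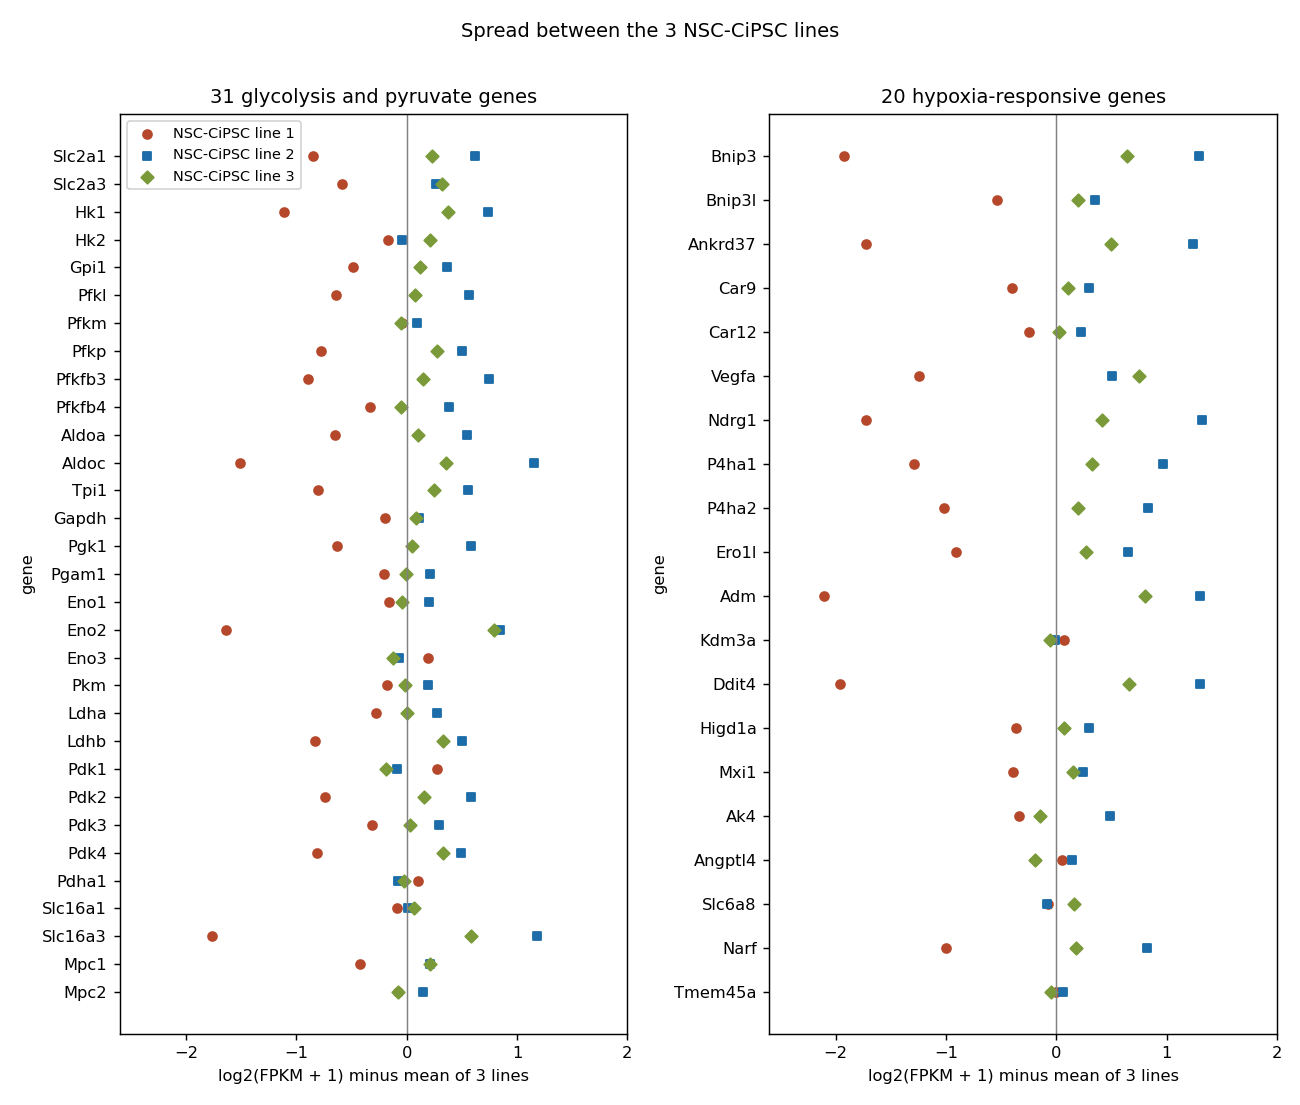
Level of each gene in the 3 NSC-CiPSC lines as log2(FPKM + 1) minus the mean of the 3 lines (horizontal axis), for 31 glycolysis and pyruvate genes and 20 hypoxia-responsive genes (vertical axis). Line 1 lies farthest left for 26 of 31 genes in one panel and 16 of 20 in the other, against 43.0% of all entries. Line 2 lies farthest right for 25 of 31 and 17 of 20, against 39.2% of all entries.

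Neighbouring pathways were counted from fixed lists. In the neural route, 12 of 20 tricarboxylic acid cycle genes fell and 0 rose (median -1.35 in log2), where 20.7% of all entries fell and 18.3% rose. Citrate synthase, Cs, averaged 117 FPKM in the NSC-CiPSC lines, against 408 FPKM in NSC (-1.80 ± 0.16), and Mdh1, cytosolic malate dehydrogenase, averaged 96.3 FPKM against 550.3 FPKM (-2.51 ± 0.11). In the intestinal route 2 of the 20 rose and 0 fell (median 0.31), where 19.1% of all entries rose and 26.2% fell. Both shares of the 20 were thus below those of all entries. The 2 that rose were Idh3a and Idh3g, subunits of isocitrate dehydrogenase (1.73 ± 0.12 and 1.72 ± 0.12). NSC was also the library with the highest mitochondrial share, 11.6% of its FPKM sum, and the part of this in the fall was not tested.

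Of 10 other pyruvate dehydrogenase and carboxylase genes, 4 fell and 0 rose in the neural route (median log2 change -0.56). Among all entries 20.7% fell and 18.3% rose there. In the intestinal route 3 rose and 1 fell (median 0.23), where 19.1% of all entries rose and 26.2% fell. Pcx, which turns pyruvate into oxaloacetate, averaged 3.93 FPKM in the NSC-CiPSC lines, against 62.9 FPKM in NSC (-3.70 ± 0.14). Dld, the E3 subunit, averaged 50.7 FPKM against 156 FPKM (-1.60 ± 0.08). Pdhb, the E1 beta subunit, averaged 221 FPKM in the IEC-CiPSC lines, against 54.4 FPKM in IEC (2.00 ± 0.15), while Pdp1, the phosphatase that opposes the kinases, fell there (-2.20 ± 0.34).

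Among 12 other glycolysis genes tested, 3 rose and 2 fell in the neural route (median log2 change 0.25), near the 18.3% and 20.7% of all entries. There were 4 that rose and 4 that fell in the intestinal route (median -0.41), where 19.1% of all entries rose and 26.2% fell. The intestinal falls included Hk3, a hexokinase of blood cells, at 0.0173 FPKM on average in the IEC-CiPSC lines, against 12.8 FPKM in IEC (-3.76 ± 0.03). Adpgk, an ADP-dependent glucokinase, rose in both routes (1.28 ± 0.12 and 1.22 ± 0.13). Leukocyte markers summed to 3844 FPKM in IEC, and their part in the fall of Hk3 was not tested. Of 18 other sugar and monocarboxylate carriers, 4 rose and 3 fell in the neural route (median -0.11), near the 18.3% and 20.7% of all entries. In the intestinal route 2 rose and 11 fell (median -1.27), where 19.1% of all entries rose and 26.2% fell. Emb, a chaperone of monocarboxylate transporters, averaged 50.4 FPKM in the NSC-CiPSC lines, against 1.29 FPKM in NSC (4.47 ± 0.24), and Slc2a4, the insulin-responsive GLUT4, averaged 1.20 FPKM in the IEC-CiPSC lines, against 27.4 FPKM in IEC (-3.69 ± 0.36).

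In the pentose phosphate pathway 1 of 10 genes rose and 1 fell in the neural route (median log2 change 0.27). Among all entries 18.3% rose and 20.7% fell there. In the intestinal route 4 rose and 0 fell (median 0.84), where 19.1% of all entries rose and 26.2% fell. Prps1, which makes the nucleotide precursor PRPP, averaged 105 FPKM in the NSC-CiPSC lines, against 31.03 FPKM in NSC (1.70 ± 0.28), and 225 FPKM in the IEC-CiPSC lines, against 9.44 FPKM in IEC (4.43 ± 0.30). Of 15 gluconeogenesis and glycogen genes, 7 fell and 0 rose in the neural route (median -1.12), where 20.7% of all entries fell and 18.3% rose. In the intestinal route 7 fell and 1 rose (median -1.53), where 26.2% of all entries fell and 19.1% rose. Pygb, brain glycogen phosphorylase, averaged 29.3 FPKM in the NSC-CiPSC lines, against 142 FPKM in NSC (-2.24 ± 0.18), and 27.3 FPKM in the IEC-CiPSC lines, against 94.0 FPKM in IEC (-1.76 ± 0.19).

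Of 21 listed regulators of glycolysis, 7 rose and 1 fell in the neural route (median log2 change 0.44), against 18.3% and 20.7% of all entries. In IEC-CiPSC lines against IEC, 4 rose and 1 fell (median 0.05). The share that rose was near the 19.1% of all entries, and 26.2% of all entries fell. Lin28a, an RNA-binding protein of pluripotent cells, averaged 97.5 FPKM in the NSC-CiPSC lines, against 0.276 FPKM in NSC (6.18 ± 0.50), and 56.2 FPKM in the IEC-CiPSC lines, against 0.349 FPKM in IEC (5.40 ± 0.53). Mycn rose in both routes (4.23 ± 0.83 and 3.26 ± 0.89), and Arnt2, a neural partner of hypoxia-inducible factors, fell in the neural route (-4.30 ± 0.10). Txnip rose in the neural route, averaging 130 FPKM in the NSC-CiPSC lines, against 17.5 FPKM in NSC (2.73 ± 0.63). Of the 20 hypoxia-responsive genes, 2 rose and 0 fell in the neural route (median -0.09), both below the 18.3% and 20.7% of all entries. In the intestinal route 4 rose and 2 fell (median 0.42). The share that rose was near the 19.1% of all entries there, and the share that fell was below the 26.2%. Among the intestinal risers was Ak4, a mitochondrial adenylate kinase (3.45 ± 0.39).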

How the data were processed

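The authors deposited gene levels as FPKM, and the submitters' processing notes name TopHat, Cufflinks and mm10 for them. Versions, annotation release and strand setting are not given in the sources used here. RNA was extracted with RNeasy Plus Mini and sequenced from NEBNext Ultra libraries, according to the labels' protocols. Each of 8 tables held 39009 entries with a status and a 95% interval within the library. Its half-width had a median of 6.86% over the members' 248 values and exceeded 20% for 58 of them; it covers counting error only. Depth, estimated from intervals of low entries, was about 8830000 to 10130000 fragments per library. Tables were joined by identifier and position.

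All entries that reached 1 FPKM in any library and had a usable status throughout (17011) were tested on log2(FPKM + 1), so changes of low genes are understated. Group means for the 5 groups were fitted jointly with limma 3.58.1 in R 4.3.3 (empirical Bayes with trend, 3 residual degrees of freedom, 1.10 prior), after a test on simulated data. Benjamini-Hochberg adjustment ran over the 17011 entries, and a call needed both an adjusted p under 0.05 and a change of 2-fold or more. The spread comes from the 5 CiPSC lines and is assumed for the single libraries. NSC against IEC has no test, and shares, promoter matches and counts over lists are descriptions. Members, lists and promoters shown were chosen with earlier results of these data known. All 31 members are named. Of each other list, up to 4 genes per comparison qualified, called and at 10 FPKM or more in the higher group, by size of change; the hypoxia-responsive genes, Hif1a and Myc given by line were chosen after their values were seen. Alternatives were pseudocounts of 0.1 and 0.5, no filter, a filter at 5 FPKM, quantile normalization, rescaling to nuclear coding sums, no trend, each line left out, and near-identical copies added. Tables were handled with Python 3.11.15 and pandas 2.3.3.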

Additional observations from a re-analysis of the deposited data

Results flagged for a closer look

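For 12 of 31 members the change in the neural route differed from that in the intestinal route by a test of the difference itself (limma, neural minus intestinal log2 change, adjusted p under 0.05 and at least 2-fold), where 30.5% of all entries were called, 17.6% positive and 12.9% negative. The largest negative differences were Pgk1 at -4.11 (neural -0.51, intestinal 3.60, adjusted p = 0.0175), Eno1 at -3.55 (-0.12 and 3.43, adjusted p = 0.0012) and Pdha1 at -2.85 (-0.93 and 1.92, adjusted p = 0.00028). Ldha differed by -2.65, Pfkm by -2.48, Pgam1 by -2.21, Gpi1 by -2.12, Pkm by -2.02, Mpc1 by -1.94, Gapdh by -1.58 and Slc16a1 by -1.04. Eno3 differed the other way, at 4.06 (neural 2.99, intestinal -1.07, adjusted p = 0.00165).

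For Pfkm and Mpc1 the neural change was the larger one, a fall in both cases. For Gpi1, Gapdh, Pgk1, Pgam1, Eno1, Pkm, Ldha, Pdha1 and Slc16a1 the intestinal rise was the larger one. All 12 differences include the gap between the single NSC and IEC libraries, and the IEC library carried the fibroblast, hepatocyte, smooth muscle, leukocyte and pancreas transcripts given above, whose part was not tested.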

How the results depend on the processing

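No called member changed sign under any of the 13 alternatives. Without 1 line, members called ran from 8 to 16 in the neural route, 12 to 23 in the intestinal route, 0 to 1 for NSC-CiPSC against ESC, 0 to 4 for IEC-CiPSC against ESC, 0 to 2 between the 2 kinds of line and 7 to 18 for the route difference. Without 1 line, all entries called ran from 187 to 727 for NSC-CiPSC against ESC, 153 to 897 for IEC-CiPSC against ESC and 98 to 795 between the 2 kinds of line. Members called between the 2 kinds of line were 4 with a filter at 5 FPKM and 4 after rescaling to nuclear coding sums, against 2. The share of all entries called under these settings is not given here. Of the calls, 8 of 10 in the neural route, 11 of 22 in the intestinal route and 7 of 12 for the route difference were kept under all alternatives, and none of the 3 others. Fewer libraries leave fewer residual degrees of freedom. All entries called without 1 line are not given here for the neural route, the intestinal route and the route difference. Changes in the member counts of these comparisons can therefore not be told apart from changes over all entries. Quantile normalization moved the median of all entries in the intestinal route to 0.15, from -0.03, and ended the calls of Eno3 and Pfkfb4 as lower there. No paired analysis was possible, because NSC, IEC and ESC have 1 library each and line numbers mark no pairs. The sources used here do not say which lines share an animal. Single libraries of NSC, IEC and ESC limit every comparison.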
